A study of Mus musculus with 2 samples.

Results

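CD8 T cells caught at the start of DNA replication were examined in droplet single-cell RNA sequencing (scRNA-seq) data of tumor-infiltrating immune cells (TIIs) from mice bearing B16-OVA melanoma. They were chosen by the unique molecular identifiers (UMIs) each cell held, where every UMI stands for 1 captured mRNA molecule. A cell was taken if at most 25% of its UMIs came from mitochondrial genes, if *Cd3d*, *Cd3e* and *Cd3g* together and *Cd8a* and *Cd8b1* together held at least 2 UMIs each, and if *Cd4* held 0. It also needed at least 3 UMIs over the S phase genes *Ung*, *Cdc6*, *Ccne2* and *Dtl*, and at most 1 UMI over the G2/M genes *Cdc20*, *Ccnb2*, *Ube2c* and *Cenpa*. This gave 95 of 7649 cells in the control library and 72 of 6503 cells in the creatine library, 167 of 14152 cells in all. "Entering S phase" is a name for this rule. Because the rule read the transcripts of these same cells, the values below describe the cells and test nothing.

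The control group was labelled as given PBS and the creatine group as given creatine, at 10.5 mg per injection into the peritoneum. The treatment entry of the control library also names the creatine injection, so its place as the control rests on its title and its treatment tag. The study describes young adult male C57BL/6J mice and daily injections. Tumors of the ovalbumin-expressing melanoma line B16-OVA were taken on day 14, 4 tumors were combined in each group, and living CD45.2+ cells were sorted by FACS. The labels and the study's sequencing methods both give that day and that number, while other passages of the study give another day for the profiling of these cells and another number of mice per pool. Each group is 1 library of pooled animals either way. No difference between the groups could be tested, and the intervals given are 95% intervals of counting error only, with no share of the spread between mice.

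A T cell that has met its antigen leaves quiescence, grows, and crosses from G1 into S phase when cyclin and CDK activity frees the E2F transcription factors from the RB family. E2F proteins then switch on the genes that load the MCM helicase onto origins, copy the DNA and make deoxynucleotides. Core histone genes are induced as replication proceeds, and the kinetochore and spindle genes follow in G2. In tumors, CD8 T cells that divide can also carry effector genes such as granzymes and perforin, and receptors such as PD-1 and LAG-3 that restrain them. Among the transcripts of the rule, *Cdc6* encodes a loader of the MCM helicase, *Ccne2* encodes cyclin E2, *Dtl* the substrate receptor of a ubiquitin ligase that acts during replication, and *Ung* a uracil-DNA glycosylase.

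The promoters of these genes were read for the E2F binding letters TTTCCCGC, TTTGGCGC, TTTCGCGC and TTTGCCGC on both strands. They are printed first because *Cdc6* and *Dtl* of the rule, and the helicase genes *Mcm5* and *Mcm6* that the rule did not use, held such letters. The 250 bases before the RefSeq start of each gene (assembly GRCm38.p6) are given 5′ to 3′ on the strand of the gene. These were chr11:98907901-98908150 on the + strand for *Cdc6*, chr1:191575545-191575794 on the - strand for *Dtl*, chr8:75109259-75109508 on the + strand for *Mcm5*, chr1:128359706-128359955 on the - strand for *Mcm6* and chr5:114130185-114130434 on the + strand for *Ung*, which held no match and is shown for contrast. Capitals mark the matched letters, and matches that overlap run together.
Cdc6: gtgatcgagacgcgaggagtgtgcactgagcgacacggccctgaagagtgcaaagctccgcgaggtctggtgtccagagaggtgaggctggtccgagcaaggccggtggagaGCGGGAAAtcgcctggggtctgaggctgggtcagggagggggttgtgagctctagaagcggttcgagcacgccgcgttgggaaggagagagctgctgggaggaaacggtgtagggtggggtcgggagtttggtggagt
Dtl: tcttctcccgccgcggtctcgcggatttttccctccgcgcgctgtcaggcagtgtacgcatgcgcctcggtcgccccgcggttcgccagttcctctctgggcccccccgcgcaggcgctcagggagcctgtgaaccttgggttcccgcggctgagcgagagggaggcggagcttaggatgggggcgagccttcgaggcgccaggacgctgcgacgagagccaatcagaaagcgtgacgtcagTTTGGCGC
Mcm5: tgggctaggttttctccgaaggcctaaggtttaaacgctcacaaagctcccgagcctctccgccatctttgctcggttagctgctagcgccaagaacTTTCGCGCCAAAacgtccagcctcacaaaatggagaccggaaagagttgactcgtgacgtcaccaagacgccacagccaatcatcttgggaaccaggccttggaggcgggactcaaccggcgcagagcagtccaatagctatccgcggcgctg
Mcm6: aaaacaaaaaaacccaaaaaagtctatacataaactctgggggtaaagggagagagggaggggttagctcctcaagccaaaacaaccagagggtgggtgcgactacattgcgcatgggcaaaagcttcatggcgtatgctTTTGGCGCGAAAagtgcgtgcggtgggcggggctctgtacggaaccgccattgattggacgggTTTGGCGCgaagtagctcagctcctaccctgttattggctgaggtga
Ung: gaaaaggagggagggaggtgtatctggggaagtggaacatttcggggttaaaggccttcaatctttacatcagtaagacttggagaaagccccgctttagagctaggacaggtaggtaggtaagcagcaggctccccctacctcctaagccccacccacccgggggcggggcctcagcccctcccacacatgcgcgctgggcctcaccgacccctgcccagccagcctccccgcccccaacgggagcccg

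The match began 138 bases before the start in *Cdc6* and 8 bases before it in *Dtl*. *Mcm5* held overlapping matches at 153 and 149 bases, and *Mcm6* held them at 110 and 106 bases and another at 47. Over the full RefSeq windows, which also take in the first 50 bases after the start, the letters were present in 2.26% of 32851 promoters. They were present in 22.6% of the promoters of genes at least 2-fold higher in cells entering S phase than in non-dividing CD8 T cells in both libraries (59 of the 261 that had a promoter, genes of the rule left out). The share was 2.63% (4 of 152) for genes at least 2-fold lower and 4.35% (279 of 6421) for the other genes compared. By role, the letters were found in 10 of 21 origin licensing and helicase promoters, 8 of 26 replication fork promoters and 5 of 12 promoters of the E2F and RB family, 4 of 17 promoters each of the cyclin and CDK list and of the Myc and ribosome biogenesis list, and 4 of 16 of the repair list. The nucleotide synthesis list gave 1 of 24, the G2 and mitosis list 1 of 34, the respiratory chain list 2 of 29, and the glycolysis and effector lists 0 of 17 and 0 of 19. Counted per gene in the same way, 704 of 27025 genes with a promoter (2.6%) held the letters. A match is a run of letters, not a measured binding site, and it says nothing on whether a factor was bound.

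In the annotation of the same build (GENCODE M21, GRCm38), *Cdc6* spans 98907801 to 98923940 on chromosome 11, *Dtl* 191537356 to 191575544 on chromosome 1, *Ung* 114130386 to 114139323 on chromosome 5 and *Ccne2* 11191351 to 11204779 on chromosome 4. The start sites of the 2 annotations do not coincide for every gene. The printed *Cdc6* stretch, with its match, lies inside the GENCODE span of *Cdc6*, so it is not upstream of the gene in that annotation. The end of the printed *Ung* stretch also lies inside the GENCODE span of *Ung*.

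The CD8 T cell gate, without the cell cycle terms, held 2664 cells in the control library, where 7241 passed the mitochondrial limit, and 2112 in the creatine library, where 6229 did. Cells entering S phase made up 3.57% of them in control mice (95% Clopper-Pearson interval 2.89 to 4.34) and 3.41% in creatine-treated mice (2.68 to 4.27). The shares differed by less than their counting error. The members held a median of 5 UMIs over the 4 S phase genes in both libraries, with a highest value of 15 and 14. The median over all CD8 T cells of the gate was 0 in both libraries. In the control library 23 members lay on the limit of 3 UMIs, and 47 CD8 T cells lay just outside it with 2. The corresponding numbers in the creatine library were 12 and 35. On the G2/M side, 48 control and 44 creatine members held the 1 UMI allowed, and 32 cells in each library missed the set by holding 2.

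**Figure D1:**
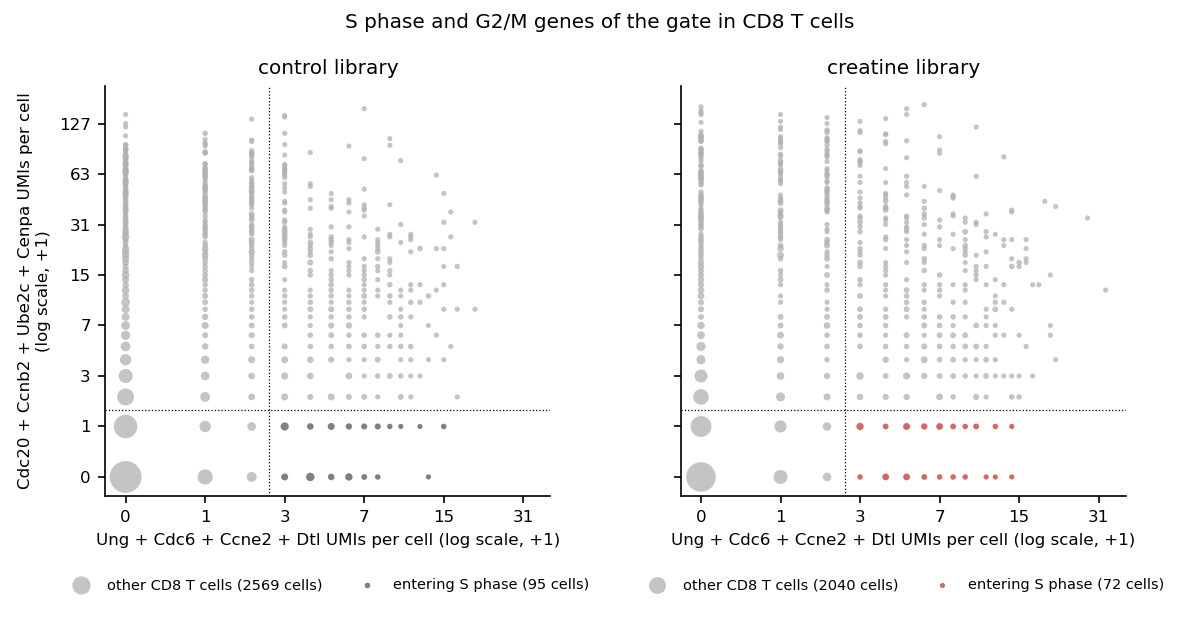
CD8 T cells by their UMIs over the 4 S phase genes of the rule (x axis) and over its 4 G2/M genes (y axis), both on a log scale with 1 added, for the control library (left) and the creatine library (right). Each point stands for all cells with that pair of values, its area grows with their number, dotted lines mark the limits, and the colored points are the 95 and 72 cells entering S phase, below a much larger field of cells that hold the G2/M genes as well.

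A sum of UMIs depends on how deeply a cell was read. Cells entering S phase held a median of 14930 UMIs in the control library (lowest 2423, highest 48508) and 18692.5 in the creatine library (6450 to 30838), against 7029 and 8052 in non-dividing CD8 T cells. The median number of genes was 3602 and 4065.5. When each CD8 T cell was thinned to 4000 UMIs, 37 of 2368 control cells (1.56%, 1.10 to 2.15) and 25 of 1981 creatine cells (1.26%, 0.818 to 1.86) met the rule. At 8000 UMIs the numbers were 77 of 1744 (4.42%, 3.5 to 5.49) and 87 of 1575 (5.52%, 4.45 to 6.77). Thinning also removes G2/M UMIs, so a thinned set can take in cells that were not members at full depth. The order of the libraries turned with the depth, so no order was read from the share.

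Most CD8 T cells that held the S phase genes also held the G2/M genes and were not members. At least 3 S phase UMIs together with 3 or more G2/M UMIs were found in 342 control (12.8%) and 363 creatine (17.2%) CD8 T cells. A G2/M set, with at least 3 G2/M UMIs and at most 1 S phase UMI, held 679 (25.5%) and 427 (20.2%). These 2 sets were used as the neighbors of the members in the cycle. The reference was the non-dividing CD8 T cells, with 0 UMIs of *Mki67* and *Top2a* and the members left out, 1052 control and 834 creatine cells or 39.5% in each library. Of the cells in the G2/M set, 130 and 88 lacked *Mki67* and *Top2a* UMIs, so they stand in both. Among the members, 90 of 95 and 70 of 72 held a UMI of *Mki67*, the widely used proliferation antigen, or of *Top2a*, the topoisomerase that untangles replicated DNA. The rule had used neither. Thinned to 4000 UMIs, 33.3% of control and 36.1% of creatine members held *Mki67*, and 57.0% and 68.1% held *Top2a*. The non-dividing cells lack both by definition, so they give no background share for these genes.

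Of the 7 CD8 T cell markers, 5 are CD3 and CD8 genes that the rule itself required. The other two, the T cell receptor constant genes *Trac* (719 and 881 UMIs) and *Trbc2* (1846 and 1838 UMIs), were not read by it and were detected in both libraries. The 7 together were at a summed level of 5648 CPM (the UMIs of a gene scaled to the same total for every set of cells) in control members and 6891 CPM in creatine members, with *Cd3g*, a chain of the T cell receptor complex, the most abundant. By the rule a member had to hold CD3 and CD8 transcripts, and it held a median of 43 and 60 CD3 UMIs and of 20 and 29.5 CD8 UMIs. The B cell genes *Cd79a* and *Ms4a1* were at 0 in both libraries, which allows up to 3 UMIs in each sum. Among granulocyte markers 4 and 3 UMIs were found. The γδ T cell genes summed to 26 and 102 UMIs, most of them from *Tcrg-C2* (22 and 76), with *Trdc* at 0 in the control members and *Cd163l1* at 0 in both. *Igkc*, a B cell transcript, gave 65 and 40 UMIs. Melanoma markers gave 60 and 15 UMIs, with *Pmel* and *Dct* the most abundant. The NK cell list summed to 191 and 65 UMIs, with *Fcgr3* (103 UMIs) the most abundant in control and *Eomes* (56 UMIs) in creatine. The CD4 T cell and Treg list summed to 65 and 44 UMIs, with *Ikzf4* (33 and 31 UMIs) the most abundant and *Cd4* at 0 by the rule. That was 43.2 and 33.07 CPM against 32.55 and 38.55 CPM in non-dividing cells.

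Myeloid transcripts were the exception. The 10 monocyte and macrophage markers summed to 2433 CPM in the control members and 343 CPM in the creatine members, and *Lyz2*, the macrophage lysozyme, was the most abundant with 1161 and 340 UMIs. The 10 dendritic cell markers summed to 1998 and 64.6 CPM, led by *Cd74* (1280 and 36 UMIs), the invariant chain of MHC class II. *Xcr1*, a marker of type 1 dendritic cells, was at 0 in both libraries. These transcripts were not spread evenly. In the control library 4 members held 2113, 1695, 1193 and 1106 UMIs of both lists and the next held 52. In the creatine library 2 members held 283 and 78. All 95 control members and 67 of 72 creatine members held at least 1, with medians of 5 and 2. Without the 7 cells that held 20 or more, 90 control and 70 creatine members were left, at 198.5 and 95.6 CPM for the monocyte and macrophage markers and 182 and 47.0 CPM for the dendritic cell markers. *Flt3*, *Xcr1*, *Clec9a* and *Siglech* were then at 0 in both libraries. The NK cell list then summed to 103 and 55 UMIs, led by *Eomes* (49 and 50 UMIs), and the melanoma markers to 37 and 15. A low level of such transcripts was common, since 87 of 95 control and 49 of 72 creatine members held 2 or more UMIs of other lineages, and a set without them kept only 8 control and 23 creatine members. Each result that follows is given with all members, and without these 7 cells where they change it. The cut at 20 UMIs was chosen after the data had been seen, and no doublets were removed beforehand. The libraries shared 30 cell barcodes, and 1 member carried a barcode that also occurs in the other library.

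Against non-dividing CD8 T cells, the members were high in the replication machinery, of which the rule had read its own 4 genes, and also in part of the G2 and mitosis genes. Of 8598 genes with at least 50 UMIs in each library, 327 (3.8%) were at least 2-fold higher in both libraries and 193 (2.24%) at least 2-fold lower. In the origin licensing and helicase list, 17 of the 22 genes compared, of 27 listed, were past 2-fold, and 28 of 30 in the replication fork list, of 31 listed. The nucleotide synthesis list gave 18 of 27, the list for replication stress and repair 14 of 20, and the E2F and RB family 8 of 12. The G2 and mitosis list, without the genes of the rule, gave 17 of 25, of 40 listed, a share like that of nucleotide synthesis, and summed to 1462 and 1629 CPM against 484.5 and 527 CPM in non-dividing cells. Replication-dependent histones gave 5 of 13. None of these lists held a gene at least 2-fold lower in both libraries. The list of cyclins, CDKs and inhibitors had 9 of 19 higher and 2 lower. The selection of cycling cells favours such genes by construction, so these counts are a description.

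The helicase that unwinds the DNA was high as a whole. *Mcm5* stood at 211 CPM (95% interval 188 to 235) in the control members and 225 CPM (201 to 252) in the creatine members, against 29.5 and 25.9 CPM in non-dividing cells, a log2 ratio of 2.84 and 3.12. *Mcm6* was at 327 and 342 CPM against 71.6 and 88.7 (log2 2.19 and 1.95). The other subunits *Mcm2*, *Mcm3*, *Mcm4* and *Mcm7* had log2 ratios of 2.33, 2.63, 2.58 and 3.05 in the control library and 2.58, 3.10, 2.33 and 3.49 in the creatine library. *Mcm10* and *Cdc45*, which complete and fire the helicase, were nearly silent in non-dividing cells (1.23 and 2.21 CPM in the control library) and reached 29.9 and 41.9 CPM in the control members and 47.3 and 34.6 CPM in the creatine members. The subunits of the origin recognition complex differed among themselves. *Orc1* and *Orc6* were higher (log2 3.44 and 2.17 in control, 3.58 and 2.74 in creatine), while *Orc4* (−0.32 and 0.06) and *Orc5* (−0.22 and 0.13) were at about the level of non-dividing cells. The licensing inhibitor geminin, *Gmnn*, was at 187 and 186 CPM against 30.6 and 32.7.

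At the replication fork, DNA ligase 1 (*Lig1*) was at 219 and 318 CPM against 19.3 and 25.6 CPM in non-dividing cells, the catalytic subunit of polymerase epsilon (*Pole*) had log2 ratios of 3.70 and 3.99, and primase (*Prim1*) of 3.20 and 3.73. The sliding clamp *Pcna* was also transcribed in non-dividing cells (45.9 and 47.9 CPM), and its ratio was smaller, 1.77 and 1.88. *Uhrf1* and *Dnmt1*, which copy DNA methylation onto the new strand, had log2 ratios of 3.33 and 2.08 in the control library and 3.37 and 2.10 in the creatine library. Among the enzymes of nucleotide synthesis, the regulated subunit of ribonucleotide reductase, *Rrm2*, was at 102 and 111 CPM in members against 7.62 and 4.67 CPM in non-dividing cells. Thymidylate synthase (*Tyms*) had log2 ratios of 2.42 and 2.98, and *Dut*, which keeps uracil out of DNA, of 1.83 and 2.06. The purine enzymes *Adsl* and *Atic* stayed under 2-fold, at 0.84 and 0.92 in the control library.

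Transcription factors of the G1/S transition showed the same division. *E2f1* was at 63.1 and 60.9 CPM against 4.79 and 5.34 CPM, *E2f7* and *E2f8*, which dampen the program, had log2 ratios of 4.35 and 4.19 in control and 5.37 and 3.91 in creatine, and *Rbl2*, the RB family member linked to quiescence, had ratios of 0.03 and 0.16. Cyclin E1 (*Ccne1*) was 1.91 and 1.93 log2 units higher, while the D cyclins *Ccnd2* (−0.29 and −0.76) and *Ccnd3* (−0.46 and −0.36), which act earlier in G1, were not. Of the CDK inhibitors, *Cdkn1b* (p27) was lower, at −1.64 and −1.18, and so was *Cdkn2d*, at −1.31 and −1.46. In the repair and checkpoint list, *Clspn*, the adaptor of the replication checkpoint, reached 132 and 140.5 CPM against 8.23 and 7.34. *Trp53* was at 0.61 and 0.76 and *Atr* at −0.07 and 0.63.

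The 10 genes outside every list with the highest ratios were, in order, *Pclaf*, *Cenpk*, *Ncapg2*, *Stmn1*, *Atad5*, *Cdca7*, *Spc24*, *Hells*, *Syce2* and *Smc2*. *Pclaf*, which binds the PCNA clamp, was at 245 CPM in the control members and 286 CPM in the creatine members, against 23.5 and 14.7 CPM. *Stmn1*, a regulator of microtubules, was at 469 and 552 CPM against 65.8 and 51.9. *Atad5* unloads the clamp, *Hells* remodels chromatin, and *Smc2* and *Ncapg2* belong to condensin complexes. The 10 lowest were *Tnfsf8*, *Kdm5b*, *Tmem176b*, *Cxcl10*, *Tcp11l2*, *Cmah*, *Phf1*, *Ddit3*, *Hbp1* and *Cpne3*. *Tnfsf8*, the ligand of CD30, held only 3 UMIs in each set of members, at 1.99 and 2.25 CPM against 12.2 and 24.3. *Cxcl10*, an interferon-induced chemokine, held 8 and 13 UMIs, at 5.32 and 9.77 CPM against 38.8 and 68.4.

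**Figure D2:**
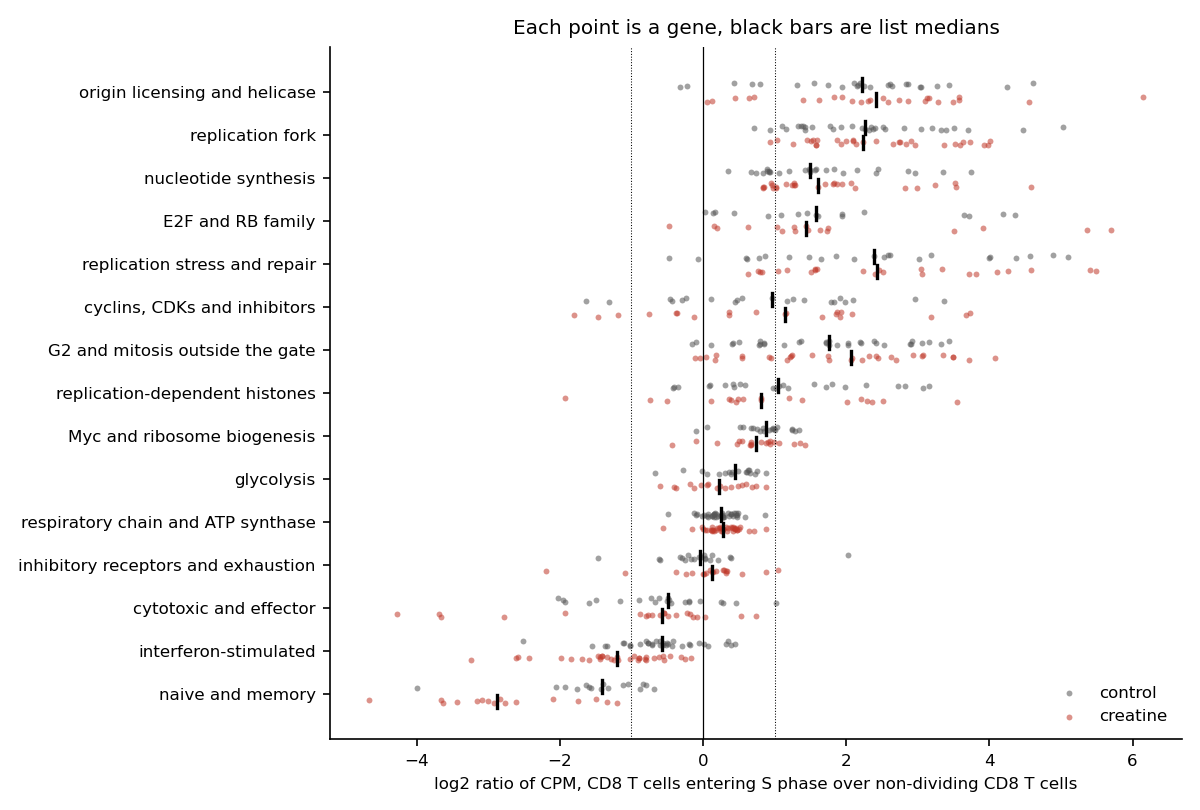
Log2 ratio of CPM, CD8 T cells entering S phase over non-dividing CD8 T cells (x axis), for the genes of 15 lists (y axis) with at least 20 UMIs in the library, in control (grey) and creatine (red); genes at 0 UMIs on one side are not drawn. Black bars are list medians, dotted lines mark 2-fold, and replication lists lie to the right of them while the naive and memory list lies to the left.

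Energy genes differed far less than replication genes. The respiratory chain and ATP synthase list had a median log2 ratio of 0.25 in control and 0.27 in creatine, with 0 of 39 genes past 2-fold in both libraries, and glycolysis had 0.44 and 0.22, with 0 of 17. *Ldha*, which makes lactate, was at 0.88 in both libraries. Of the genes for ribosome biogenesis, 3 of 20 were past 2-fold, the box C/D proteins *Nop56* and *Nop58* (1.24 and 1.25 in control, 1.28 and 1.35 in creatine) and *Nolc1* (1.29 and 1.42). Summed, this growth list, of Myc and ribosome biogenesis, was at 5090 and 4831 CPM in members against 2829 and 2670 CPM in non-dividing cells. In the list for dissociation and heat shock 1 gene of 18 was past 2-fold higher and 2 were lower, with medians of 0.07 and −0.25. The median over all genes was 0.00 in control and −0.02 in creatine, and 3.8% of all genes compared were past 2-fold higher in both libraries and 2.24% lower.

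Genes of quiescent and stem-like T cells were low against non-dividing cells. Of the 16 naive and memory genes, 12 were at least 2-fold lower in both libraries and 0 were higher, and the list medians were −1.41 in control and −2.87 in creatine. Of all 8598 genes compared, 2.24% were that much lower in both libraries and 3.8% higher. *Tcf7*, the transcription factor TCF-1 of naive and stem-like T cells, was at 14.6 and 9.77 CPM in members against 49.4 and 73.5 CPM in non-dividing cells, and it was detected in 5 of 95 and 6 of 72 members. *Il7r*, the receptor for the survival cytokine IL-7, was at 39.9 and 24.0 CPM against 118 and 146. The low level was not particular to the members. The naive and memory list summed to 806 and 666 CPM in the members. It was at 598 and 458 CPM in cells with S and G2/M genes and at 683 and 665 CPM in the G2/M set. Interferon-stimulated genes were lower for 7 of 33 genes, with list medians of −0.58 and −1.20. The effector list had 0 genes higher and 3 lower of 19, and the inhibitory receptor list 0 of 19 in either direction. The 3 lower effector genes were granzyme A (*Gzma*, −1.60 and −3.66), the lymphotactin *Xcl1* (−1.93 and −2.78) and *Gzmd*, granzyme D, which held 41 UMIs in the control members (27.2 CPM against 76.9) and 0 in the creatine members (against 22.0 CPM).

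Set beside their neighbors in the cycle, the members ranked differently from list to list. Origin licensing and helicase transcripts summed to 508 CPM in non-dividing, 2284 CPM in S-entry, 2092 CPM in S and G2/M, and 1012 CPM in G2/M cells of the control library. The creatine library gave 520, 2598, 2241 and 1047 CPM. The members thus had the highest licensing level of the 4 sets in both libraries, beyond the counting intervals. The members and their neighbors were drawn by their S phase and G2/M UMIs, which can favour such an order, so the ranking is a description. Other replication lists did not all peak there. Nucleotide synthesis was at 2968 and 3275 CPM in control and creatine members, against 3655 and 3678 CPM in cells with S and G2/M genes. The repair list was at 1271 and 1378 against 1486 and 1574 CPM, and the E2F and RB list at 653 and 679 against 717 and 783 CPM. The replication fork list was at 2893 against 3020 CPM in control and 3298 against 3238 CPM in creatine. Replication-dependent histones ran the other way from licensing. They summed to 357, 1049, 6152 and 5571 CPM in the control library and 294, 636.5, 3034 and 3290 CPM in the creatine library. Histone transcripts of the members were thus above those of non-dividing cells but well below those of cells with G2/M genes. The linker histone gene *Hist1h1b* stood at 97.0 and 81.2 CPM in members against 470 and 457 CPM in the G2/M set. The transcripts of this family mostly lack a poly(A) tail and many are near-identical, so a 3′ poly(A)-primed library counts them incompletely and can split reads between copies.

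Gene by gene, 14 of 27 licensing genes in control and 17 of 27 in creatine were at least 2-fold higher in the members than in the G2/M set, with medians of 1.06 and 1.32 log2 units, and *E2f1* stood out at 2.74 and 2.72. Over all genes, 4.86% in control and 3.72% in creatine were at least 2-fold higher than in the G2/M set, and 7.42% and 8.49% at least 2-fold lower. All 40 genes of G2 and mitosis outside the rule were lower in the members in both libraries, with medians of −2.29 and −2.16, and so were 42 of 44 and 41 of 42 histone genes. The spindle kinase *Plk1* (−4.02 and −3.95) and survivin, *Birc5* (−3.91 and −3.95), were among the lowest. *Rrm2* was level with the G2/M set (0.03 and −0.08). The G2/M set was defined by having few S phase and many G2/M UMIs, so the direction of these differences follows the way the sets were drawn.

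**Figure D3:**
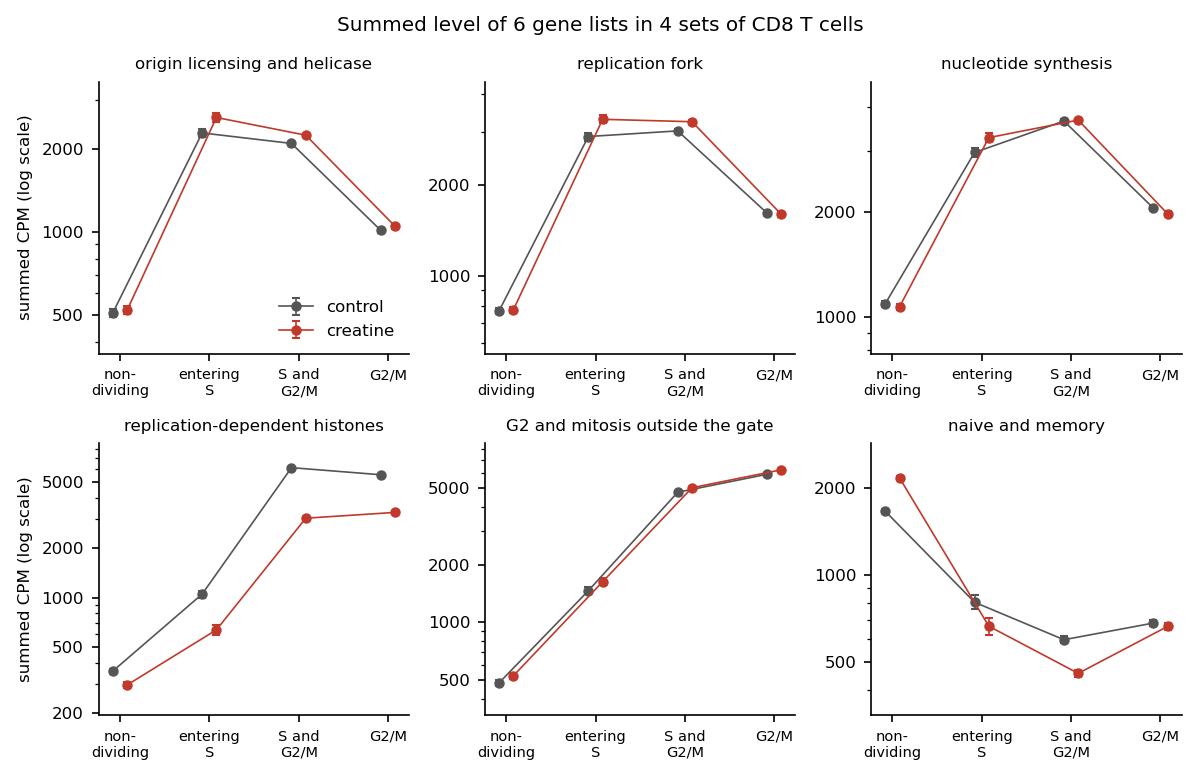
Summed CPM (y axis, log scale, a different range in each panel) of 6 gene lists in 4 sets of CD8 T cells, drawn with UMI sums per library, for control (grey) and creatine (red). Bars are exact 95% Poisson intervals, lines join sets and not times, and the licensing list peaks in the cells entering S phase while the histone list stays low there and is high in the sets with G2/M genes.

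Between the libraries, 5873 genes held at least 50 UMIs over the members of both. Of these, 329 (5.6%) were at least 1.5-fold higher in the creatine members and 341 (5.81%) at least 1.5-fold lower. Without the 7 cells rich in myeloid transcripts, 322 of 5484 (5.87%) were higher and 184 (3.36%) lower. In non-dividing CD8 T cells the shares were 3.63% and 4.05% of 9678 genes. The members are few, which widens their ratios, and creatine members also held more UMIs per cell. The part of depth in these ratios was not tested.

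Most genes of the replication program differed little between the libraries, but its summed levels were higher in creatine. The licensing, fork and nucleotide synthesis lists summed to 2284, 2893 and 2968 CPM in control members and 2598, 3298 and 3275 CPM in creatine members. The counting intervals of the libraries did not overlap for any of these sums. With at least 20 UMIs, the median log2 ratio of creatine over control was 0.12 for licensing and helicase (18 genes higher and 8 lower), 0.17 for the replication fork (23 and 8) and 0.11 for nucleotide synthesis (18 and 9), beside 0.04 over all 8362 genes, of which 4588 were higher. Over the alternatives run, which include leaving out the 7 cells, these list medians ran from −0.08 to 0.16, 0.09 to 0.34 and 0.01 to 0.12. Past 1.5-fold were 2 of 26, 1 of 31 and 2 of 27 genes, all higher in creatine, while of all genes with at least 20 UMIs 8.28% were past 1.5-fold higher and 10.1% lower (9.64% and 6.84% without the 7 cells). Those were *Mcm7* (319 and 436 UMIs, 212 and 328 CPM, log2 0.63, 0.53 without the myeloid-rich cells) and *Mcm10* (45 and 63 UMIs, 0.66), polymerase alpha *Pola1* (67 and 95 UMIs, 0.68), thymidine kinase *Tk1* (112 and 156 UMIs, 0.66) and the pyrimidine enzyme *Dhodh* (19 and 33 UMIs, 0.97). In the small set without UMIs of other lineages, *Mcm7* (−0.02), *Mcm10* (−0.40) and *Tk1* (−0.08) were not higher in creatine. *Mcm5* was at 0.10 and *Pcna* at 0.16, which turned to −0.33 and −0.38 in that small set, and *Cdt1*, the licensing factor that is degraded when S phase starts, was at −0.58 (91 and 54 UMIs). *Mki67* was at 118 and 168 CPM (intervals 100.9 to 136.3 and 146.3 to 191.1) and *Top2a* at 278.5 and 324 CPM, with intervals that overlapped.

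Granzyme B and perforin, the main cytotoxic pair, were higher in the creatine members, and granzyme B had the highest ratio of the genes named by the rule with all members. Granzyme B, *Gzmb*, held 1042 UMIs in control and 2424 in creatine, or 693 CPM (651 to 736) and 1822 CPM (1750 to 1896), a log2 ratio of 1.40. Per cell, the lowest, median and highest values were 0, 6 and 66 UMIs in control and 0, 14.5 and 314 UMIs in creatine, with 12 and 4 cells at 0. The groups overlapped widely, and the highest creatine cell held 12.95% of the UMIs of its library. Without the 7 myeloid-rich cells the ratio was 1.16. Perforin, *Prf1*, which forms the pores granzymes enter by, held 756 and 1376 UMIs (502.5 and 1034 CPM, log2 1.04, 0.91 to 1.17, 0.88 without the 7 cells), with medians of 4 and 12.5 UMIs per cell and highest values of 42 and 108. The chemokine *Ccl5* held 4086 and 7374 UMIs (2716 and 5541 CPM, log2 1.03, 0.73 without the 7 cells), with medians of 30 and 70.5 UMIs per cell. In the set without UMIs of other lineages the ratios were 1.71 for *Gzmb*, 0.26 for *Prf1* and 0.49 for *Ccl5*. *Gzmb* lies at 56258838 to 56262260 on chromosome 14, *Prf1* at 61297833 to 61304680 on chromosome 10 and *Ccl5* at 83525778 to 83530518 on chromosome 11.

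Thinned to 4000 UMIs, 65.6% of control and 80.6% of creatine members held a *Gzmb* UMI (55.02 to 75.1 and 69.5 to 88.9), and 65.6% and 81.9% a *Prf1* UMI, with 93 control and 72 creatine members deep enough. Unthinned, the shares were 87.4% and 94.4% for *Gzmb* and 83.2% and 93.1% for *Prf1*. The thinned intervals of the libraries overlapped for both genes. In non-dividing CD8 T cells thinned alike, 57.3% and 60.6% held *Gzmb* and 58.9% and 60.7% *Prf1*. The G2/M set gave 74.2% and 84.5% for *Gzmb* and 72.7% and 82.6% for *Prf1*, with intervals of the libraries that did not overlap, while the summed level of *Gzmb* there was nearly equal between the libraries. In non-dividing myeloid cells, which should lack these genes, 7.08% and 7.57% held *Gzmb* and 3.48% and 6.04% *Prf1*, at median depths of 8404 and 9258 UMIs before thinning.

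The same 3 genes were also higher in the non-dividing creatine cells, with log2 ratios of 0.46 for *Gzmb*, 0.47 for *Prf1* and 0.64 for *Ccl5*. In cells with S and G2/M genes, *Gzmb* was at 1793 CPM in control and 1807 CPM in creatine, and in the G2/M set at 1559 and 1533 CPM. The control members had the lowest *Gzmb* level of the 4 control sets (790 CPM in non-dividing cells), while the creatine members were within counting error of the creatine cells with S and G2/M genes. *Prf1* in the creatine library was at 716, 1034, 1035 and 958 CPM from non-dividing cells to the G2/M set, and at 517, 502.5, 685 and 783 CPM in the control library. *Ccl5* was higher in creatine in all 4 sets. Whether the libraries differ more in cells entering S phase than in the other sets was not tested, since each set is 1 sample per group.

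**Figure D4:**
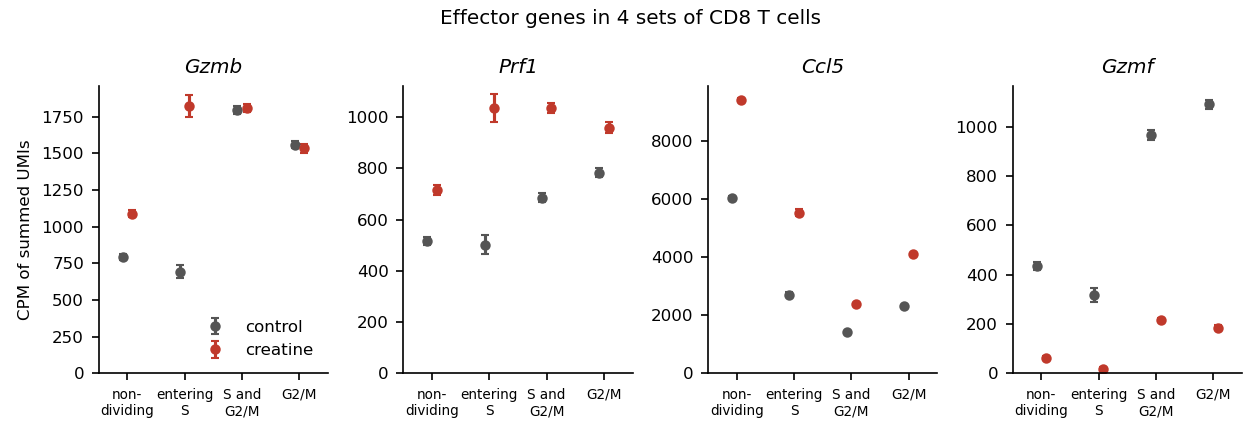
CPM of summed UMIs (y axis, from 0, a different range in each panel) of granzyme B, perforin, CCL5 and granzyme F in 4 sets of CD8 T cells (x axis), control in grey and creatine in red, with exact 95% Poisson intervals. Granzyme B stands at 693 and 1822 CPM in the cells entering S phase and is nearly level between the libraries in the sets with G2/M genes.

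Gene by gene, the effector list had no common direction. Its summed level, which a few abundant genes set, was higher in creatine in all 4 sets, at 9309 and 15070 CPM in the members, 13080 and 19680 CPM in non-dividing cells, 10600 and 13060 CPM in cells with S and G2/M genes and 11800 and 15490 CPM in the G2/M set. *Ccl5* alone made up 2716 and 5541 CPM of the sum in the members. Of its 19 genes with at least 20 UMIs, 10 were higher in creatine and 9 lower, with a median of 0.06, and 5 and 6 were past 1.5-fold, where 8.28% and 10.1% of all genes were. The 5 higher were *Gzmb*, *Prf1*, *Ccl5*, the chemokine *Ccl3* (1666 and 2313 UMIs, log2 0.65) and interferon-γ, *Ifng* (331 and 470 UMIs, 220.0 and 353 CPM, log2 0.68). *Ccl3* and *Ifng* turned to −1.56 and −0.30 in the set without UMIs of other lineages. The 6 lower were the granzymes *Gzma* (51 and 19 UMIs, −1.25), *Gzmc* (145 and 36 UMIs, −1.83), *Gzmd* (41 and 0 UMIs), *Gzme* (55 and 1 UMIs, −5.60 with a counting interval of −10.93 to −3.07) and *Gzmf* (478 and 22 UMIs, 318 and 16.5 CPM, −4.26), and the lysosomal protein *Lamp1* (239 and 97 UMIs, −1.12). *Lamp1* was level without the 7 myeloid-rich cells (0.05) and at 0.66 without UMIs of other lineages, and in members with 0 G2/M UMIs *Gzmc* was at 0.89 and *Gzmf* at −0.49. *Gzmf* came from few cells: 20 of 95 control and 8 of 72 creatine members held it, the 5 highest control cells held 92.9% of its control UMIs, and the highest alone held 173 of 478. Granzyme K, *Gzmk*, did not share that direction (47 and 56 UMIs, 31.2 and 42.1 CPM, log2 0.43, from −0.16 to 1.02), which is within counting error, and it was at −0.40 without UMIs of other lineages. Granzymes C to G are close copies in a gene cluster, so reads may be split among them. *Gzmf* was also lower in the creatine library in the other sets, at 62.97 against 435 CPM in non-dividing cells and 184.5 against 1091 CPM in the G2/M set.

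Receptors and factors of the inhibitory and exhaustion list leaned toward creatine. Of 20 genes, 19 were higher and 1 lower, with a median of 0.33, and 6 and 1 were past 1.5-fold, where 8.28% and 10.1% of all genes were. Without the 7 myeloid-rich cells the split was 17 and 3 and the median 0.21, beside 0.06 over all genes. *Lag3*, which binds MHC class II, held 308 and 475 UMIs (205 and 357 CPM, log2 0.80, 0.59 to 1.01, 0.68 without the 7 cells). PD-1, *Pdcd1*, held 298 and 397 UMIs (198 and 298 CPM, log2 0.59, 0.44 without the 7 cells). A member held a median of 2 *Pdcd1* UMIs in control, with a highest value of 10, and 5 in creatine, with a highest value of 18. *Rgs16* (0.70) and the orphan receptors *Nr4a1* (17 and 23 UMIs, 0.61) and *Nr4a2* (0.61) were past 1.5-fold as well, although *Nr4a2* was at 0.01 with at least 5 S phase UMIs. *Nr4a1* turned to −0.70 without the 7 cells. *Tigit* held 5 and 20 UMIs. *Nr4a3*, at 20 and 7 UMIs, was the gene that was lower. *Tox*, the transcription factor of exhausted T cells, was close to level at 451 and 455 UMIs (0.19, but −0.25 without UMIs of other lineages), and TIM-3, *Havcr2*, at 144 and 159 UMIs (0.32). In non-dividing cells the list median was 0.15, with 14 higher and 6 lower. Summed over the list, creatine was above control in all 4 sets, at 1907 against 1617 CPM in non-dividing cells, 2063 against 1519 CPM in the members, 1831 against 1414 CPM in cells with S and G2/M genes and 2192 against 1561 CPM in the G2/M set.

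Thinned to 4000 UMIs, *Pdcd1* was held by 49.5% of control and 68.1% of creatine members and *Lag3* by 43.0% and 65.3%. Non-dividing CD8 T cells gave 47.4% and 45.7% for *Pdcd1* and 52.1% and 48.8% for *Lag3*. The G2/M set, like the members, was higher in creatine, with 54.96% and 64.2% for *Pdcd1* and 51.0% and 68.5% for *Lag3*. The background in myeloid cells was 1.16% for *Pdcd1* and 1.54% for *Lag3* in control and 1.07% and 1.30% in creatine. The thinned intervals of the libraries overlapped for both genes (38.9 to 60.0 and 56.0 to 78.6 for *Pdcd1*, 32.8 to 53.7 and 53.1 to 76.1 for *Lag3*). Unthinned, 84.2% and 93.1% of members held *Pdcd1* and 87.4% and 90.3% held *Lag3*. The costimulatory receptor *Cd28*, at 111 and 196 UMIs (73.8 and 147 CPM), was held by 24.7% of control and 47.2% of creatine members when thinned and by 64.2% and 88.9% unthinned. The thinned intervals were 16.4 to 34.8 and 35.3 to 59.4. Thinned shares were also higher in creatine in non-dividing cells, at 33.5% and 46.2%, and in the G2/M set, at 34.7% and 43.4%, beside 0.644% and 1.07% of myeloid cells. *Il2rb*, the IL-2 and IL-15 receptor chain, was at 441 and 667 CPM (0.59), while *Tnfrsf4* (OX40; 198 and 77 UMIs, −1.19) and *Cd6* (137 and 64 UMIs, −0.92) were lower. *Tnfrsf4* was at 0.07 in members with 0 G2/M UMIs.

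**Figure D5:**
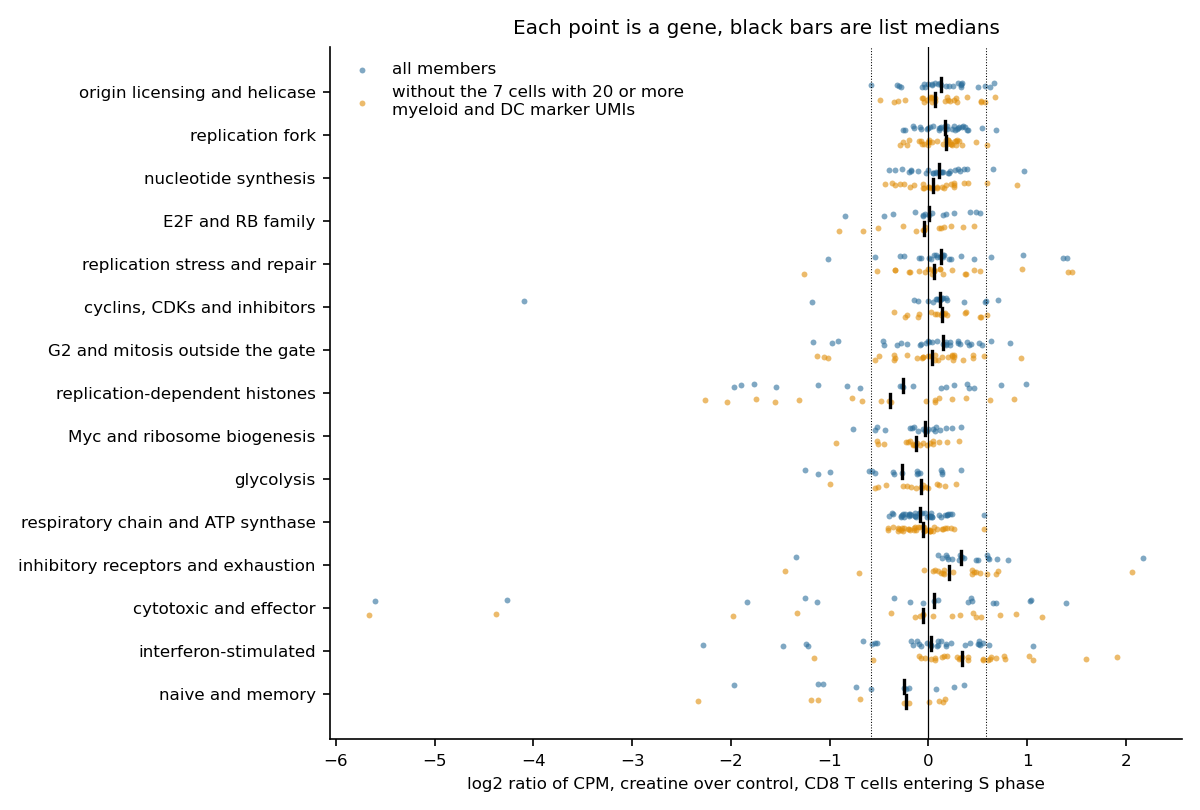
Log2 ratio of CPM, creatine over control, in CD8 T cells entering S phase (x axis) for the genes of 15 lists (y axis) with at least 20 UMIs over both libraries, with all members (blue) and without the 7 cells rich in myeloid transcripts (orange). Genes at 0 UMIs in 1 library are not drawn, black bars are list medians, dotted lines mark 1.5-fold, and replication lists cluster near 0 while histone and effector genes spread widely.

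The histone genes were divided between the libraries. Of 19 histone genes with at least 20 UMIs, 7 were at least 1.5-fold lower in the creatine members and 2 higher, where 10.1% and 8.28% of all genes were, with a median of −0.26 (−0.39 without the 7 cells). The median turned to 0.29 in the set without UMIs of other lineages and to 0.07 for genes with at least 100 UMIs. *Hist1h2ap* was at 498.5 and 128 CPM, and it differed alike in non-dividing cells (75.6 and 22.3 CPM) and in the G2/M set (3148 and 874 CPM). The linker histone *Hist1h1b* was at 97.0 and 81.2 CPM (log2 −0.26, from −0.63 to 0.11), which is within counting error and turned to 0.35 in members with 0 G2/M UMIs. *Apoe*, a macrophage transcript, was lower in the creatine members without the 7 cells (84 and 26 UMIs, −1.63). It was also lower in the creatine non-dividing CD8 T cells filtered alike (82.3 and 31.5 CPM, −1.38) and in the creatine non-dividing myeloid cells (4342 and 3056 CPM).

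With all members, the 10 lowest genes by the rule for named genes were *Ctsl*, *Lpl*, *Gpnmb*, *Cd63*, *Mmp12*, *H2-Eb1*, *C1qb*, *Cd74*, *H2-Aa* and *C1qc*. Most are known from macrophages or antigen-presenting cells. *Ctsl*, a lysosomal protease, held 291 UMIs in control, of which 84.9% were in 1 cell, and 1 UMI in creatine, and *Mmp12* held 174 UMIs, 95.4% of them in 1 cell, and 4 in creatine. *C1qb* and *C1qc* encode complement C1q, and *H2-Eb1* and *H2-Aa* encode MHC class II. Their log2 ratios lay between −4.82 (*C1qc*) and −8.01 (*Ctsl*, counting interval −13.32 to −5.52), and without the 7 cells they were nearer 0, between −0.74 (*Mmp12*) and −4.02 (*Ctsl*). The latter ratios mostly rest on few UMIs, and no direction was read from those. *Cd74*, lower in non-dividing creatine cells as well (−1.30), held 79 and 20 UMIs and was at −1.92 without the 7 cells. Among the 10 lowest were then *Gzmf*, *Hist1h2ap*, *Gzmc*, *Apoe*, *Tnfrsf4*, *Usp50*, *Cd6*, *Grn* and *Mdm4*. The 10 highest with all members were *Gzmb*, *Spp1*, *Oxsr1*, *Cdc14a*, *Casp1*, *Nmt2*, *Prf1*, *Ccl5*, *Plac8* and *Crybg1*, of which *Spp1* (osteopontin, 135 and 280 UMIs) had 61.5% of its control UMIs and 32.9% of its creatine UMIs in 1 cell each. Without the 7 cells *Spp1* held 48 and 279 UMIs and its ratio went from 1.23 to 2.60, and it was at −0.88 in members with 0 G2/M UMIs. The 10 highest were then *Spp1*, *Gzmb*, *Cdc14a*, *Crybg1*, *Nmt2*, *Oxsr1*, *Cited2*, *Atf1*, *Cd28* and *Bbip1*, so that *Prf1*, *Ccl5*, *Casp1* and *Plac8* were no longer among them. *Plac8* held 532 and 944 UMIs (354 and 709 CPM, 0.87 without the 7 cells) and *Casp1*, the inflammasome caspase, 34 and 66 UMIs (1.13). In non-dividing CD8 T cells, the log2 ratio of creatine over control was 1.54 for *Spp1*, 1.32 for *Casp1* and 1.11 for *Oxsr1*. The other genes of the 10 highest with all members lay there between 0.16 (*Crybg1*) and 0.64 (*Ccl5*). With all members, *Spp1* (1.23) and *Casp1* (1.13) thus stood no higher than in non-dividing cells.

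Metabolic and memory genes were mostly level or low in the creatine members. Glycolysis had a median of −0.27, with 4 genes higher and 13 lower, but −0.07 without the 7 cells. The glucose transporter *Slc2a1* held 70 and 26 UMIs (−1.25, −0.99 without the 7 cells), hexokinase 2 (*Hk2*) 140 and 57 (−1.12, −0.54 without them), and enolase (*Eno1*) 727 and 442 (−0.54, −0.51). *Eno1* was lower by as much in non-dividing cells (−0.63). The respiratory chain and ATP synthase list had a median of −0.09 and 0 of 39 genes past 1.5-fold, where 8.28% of all genes were past it higher and 10.1% lower. Among naive and memory genes, 8 of 11 were lower in the creatine members (median −0.24), whereas 15 of 16 were higher in the creatine non-dividing cells (median 0.52). Over all genes, 3774 of 8362 were lower in the creatine members and 5988 of 11092 higher in the creatine non-dividing cells. *Slamf6*, a receptor of stem-like T cells, held 27 and 11 UMIs. *Il7r* held 60 and 32 UMIs (−0.73) but was at 0.11 without the 7 cells and at 1.08 without UMIs of other lineages, so its direction rests on which cells are counted. Interferon-stimulated genes had a median of 0.02 in members, 0.34 without the 7 cells, and 0.61 in non-dividing cells, where 32 of 34 were higher.

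The genes of creatine handling were scarce in these cells. Creatine kinase B, *Ckb*, held 45 and 12 UMIs, and the creatine-making enzymes *Gatm* 24 and 4 and *Gamt* 4 and 0. The creatine transporter *Slc6a8* held 9 and 2 UMIs, and *Ckm* 2 in each library. The mitochondrial kinases *Ckmt1* and *Ckmt2* held 0, which allows up to 3 UMIs in each sum. Of the *Ckb* and *Gatm* UMIs in control, 28.9% and 41.7% were in 1 cell each, and without the 7 cells the *Ckb* ratio was −0.23.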

How the data were processed

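Cells were read from 1 gene-by-cell table of raw UMI counts per library, which the authors deposited after Cell Ranger 3.0.2 with mm10 (per the submitters' processing notes). The accompanying lists of genes and barcodes hold no measurement, and the combined table of both libraries was not used here. The libraries held 80434564 UMIs in 7649 control cells and 72898494 UMIs in 6503 creatine cells, and 7241 and 6229 cells passed the mitochondrial limit of 25%. Many more cells thus failed this limit than the study states for its own filter, and the reason was not tested. The barcodes begin like those of a later kit version than the labels name, so the chemistry is unsure. No doublet caller was run. Cells with transcripts of other lineages and cells with the most UMIs were left out as alternatives.

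Counts were summed over the cells of a set and scaled to CPM. With 1 library per group no test was made. Sums carry exact Poisson intervals, shares Clopper-Pearson intervals and ratios conditional binomial intervals, all at 95% and for counting error only. Reads were collapsed to UMIs, and a count of 0 allows up to 3. Ratios between libraries were counted past 1.5-fold (at least 50 UMIs, lists at least 20), and against non-dividing cells past 2-fold in both libraries (at least 50 UMIs in each).

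Named genes were those of the rule, list members used as illustrations, and the 10 highest and 10 lowest ratios among genes with at least 100 UMIs (between libraries also with CPM intervals that did not overlap and at least 1.5-fold, and against non-dividing cells outside every list and past 2-fold in both libraries). Genes of the rule, mitochondrial genes and unnamed gene models were left out, and some genes are not reported here. Members and lists were chosen with earlier results of these data known. Gene positions are GENCODE M21 and promoters RefSeq GRCm38.p6, with an entry for 3 of the 4 S phase genes of the rule. Python 3.11.15, numpy 2.4.6, pandas 2.3.3, scipy 1.17.1, matplotlib 3.10.9, R 4.3.3 and edgeR 4.0.16 (for its TMM scaling only) were used, and the calculations were tested on simulated data.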

Additional observations from a re-analysis of the deposited data

How the results depend on the processing

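The share of CD8 T cells entering S phase moved with the rule. In control and creatine it was 5.33% and 5.07% with at least 2 S phase UMIs, 1.84% and 2.37% with at least 5, 1.76% and 1.33% with 0 G2/M UMIs, 1.56% and 1.26% thinned to 4000 UMIs, and 4.42% and 5.52% thinned to 8000. Without cells holding 2 or more UMIs of other lineages it was 1.42% in control and 3.18% in creatine, with 8 and 23 members left. Counts past 1.5-fold between libraries, 329 higher and 341 lower, became 165 and 82 without those cells, 692 and 841 with at least 20 UMIs, and 48 and 59 with at least 200. The lower count was 176 with 0 G2/M UMIs, 208 without the 10% of cells with the most UMIs, and 184 without the 7 myeloid-rich cells, an alternative added after the data were seen. Against non-dividing cells, 327 higher and 193 lower became 137 higher without cells of other lineages, 120 and 87 with at least 200 UMIs, and 315 lower with at least 20. TMM scaling gave 274 and 244. Each list median stayed within the median counting interval of its genes under the alternatives run. That interval is one for single genes, so staying inside it does not show that a list median is stable. The effector median ran from −0.32 to 0.46, that of the histones from −0.39 to 0.29 and that of the interferon-stimulated genes from −0.01 to 0.42. Several list medians turned sign. That of the histones turned to 0.29 without cells of other lineages and 0.07 with at least 100 UMIs, and with 0 G2/M UMIs those of licensing and helicase turned to −0.08, repair to −0.01, E2F and RB to −0.15, G2 and mitosis to −0.02 and Myc and ribosome biogenesis to 0.12. Without cells of other lineages the effector median turned to −0.32, that of repair to −0.18 and that of T cell receptor signaling to −0.09. The interferon median, 0.02, was as low as −0.01.

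Signs turned in the set without other lineages for *Ccl3* (−1.56), *Ifng* (−0.30), *Lamp1* (0.66), *Mcm10* (−0.40), *Mcm7* (−0.023), *Ccl4* (−1.01), *Gzmk* (−0.40), *Il7r* (1.08), *Mcm5* (−0.33), *Pcna* (−0.38), *Pkm* (0.16), *Tox* (−0.25), *Hist1h1b*, *Tbx21* (−0.21) and *Tk1* (−0.082). *Lamp1* was at 0.048 without the 7 myeloid-rich cells, and with 0 G2/M UMIs *Gzmc* was at 0.89, *Spp1* at −0.88, *Tnfrsf4* at 0.073, *Hist1h1b* at 0.35, *Hist1h4d* at −0.01 and *Gzmf*, at −4.26 with all members, at −0.49. *Nr4a2* was at 0.01 with at least 5 S phase UMIs. The cause was not tested, and these sets hold fewer cells. No paired analysis was possible because each group holds 1 library. Leaving out a replicate was not possible for the same reason.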
